A study of Mus musculus with 4 samples.

Results

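The regions described here are sites of open chromatin at the ends of genes that were called in every library of an Omni-ATAC-seq series on mouse oligodendrocytes (OLs) and their progenitors (OPCs). Overlapping or touching peaks of the 4 peak lists were merged. A region was kept if each of the 4 lists had a peak in it, if it was narrower than 1500 bp, and if its midpoint lay within 1 kb of either end of a protein-coding gene. This rule chose 11837 of 229743 merged regions (5.15%), which is 21.3% of the 55466 regions with a peak in all 4 lists. The members were selected on these measured values, the peak calls of all 4 lists and the merged width. The presence of a peak in both cell types, the width limit and the position at a gene end are therefore given by the rule and are not findings. At the width limit, the region of Ddx54 with 1499 bp was the widest kept and that of Cnot2 with 1500 bp the narrowest left out. At the distance limit, the region of Slc35c1 at 999.5 bp was kept and that of Traf6 at 1000.5 bp was left out. In OLs then OPCs, their fold percentiles, explained further on, were 35.9, 40.3, 39.7 and 43.7 for Ddx54, 44.3, 43.8, 44.8 and 40.2 for Cnot2, 61.7, 66.5, 69.7 and 54.8 for Slc35c1, and 6.34, 13.9, 7.91 and 8.19 for Traf6.

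The OLs were cells sorted for the surface antigen O1. The labels of both OL and OPC samples give the same progenitor culture, in which OPCs were kept with 20 ng/mL bFGF and 20 ng/mL PDGFA, without SHH, purified on CD140a and NG2 after 4 passages, expanded and frozen. Both cell types came from epiblast stem cells of the early mouse embryo, from 1 culture line named 129O1 and 1 named EpiSC5, so each group had n = 2 and each line gave 1 library of each cell type. The source strains were 129SvEv and 129S1/SvImJ, which are not assigned to the lines here. The assay inserts adapters with the Tn5 transposase into accessible DNA of 50000 cells. The labels do not state that the libraries are from separate differentiations, and the p-values here therefore measure only how far these libraries spread. Pairs of values are given with the 129O1 library before the EpiSC5 library.

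Promoters of widely used genes often lie in CpG islands, stretches rich in CG dinucleotides that stay free of nucleosomes at the transcription start in many cell types. Promoters of genes with restricted expression more often lack such an island. When OPCs become OLs they leave the cell cycle, make large amounts of myelin lipids and proteins, and depend on the transcription factors Olig2, Sox10 and Myrf. In ATAC-seq data of many cell types the promoter peaks vary less between conditions than the peaks of distal enhancers.

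The OL lists held 127196 and 152595 peaks and the OPC lists 129534 and 125002. They covered 35.02 and 41.2 Mb in OLs and 38.63 and 44.11 Mb in OPCs. The median peak was 190 and 192 bp wide in OLs and 201 and 237 bp wide in OPCs. No read counts are in the lists, so the depth is unknown beyond the stated 100 M reads per sample, and no counting interval can be given. Markers were checked by counting genes with a peak within 1 kb of an end. Of 28 genes of myelin and the mature oligodendrocyte, 23 and 23 had one in OLs and 19 and 24 in OPCs, and of 24 OPC genes 20 and 23 had one in OLs and 20 and 21 in OPCs. The counts of these lists overlapped between the cell types. Of 19 genes of the immature oligodendrocyte 17 and 18 had one in OLs and 16 and 16 in OPCs, which did not overlap. Hapln2 is a gene of the perinodal matrix and Enpp6 an early marker of new oligodendrocytes. Each had a peak in both lines as OLs and none in either line as OPCs. Emid1, on the OPC list, had the same pattern. On the myelin list Mag, Mog, Mobp and Aspa lacked a peak only in 1 OPC list. Mbp and Cldn11 went the other way and each lacked a peak only in 1 OL list. Ermn had a peak only in 1 OPC list. Of 16 vascular and mesenchymal markers 4 and 2 had a peak in OLs and 9 and 7 in OPCs, with Pecam1, Tek and Cldn5 at 0 in every list. Of 16 astrocyte markers 9 and 11 had one in OLs and 12 and 13 in OPCs, with Aqp4, Gjb6 and Mlc1 at 0, and of 16 neuron markers 11 and 10 in OLs and 12 and 12 in OPCs, with Rbfox3, Stmn2 and Gad2 at 0. Of 10 microglia markers 2 had a peak in every list, and of 10 pluripotency markers 2 and 2 did in OLs and 2 and 4 in OPCs, with Pou5f1 at 0 in all. Vascular, astrocyte and neuron markers thus had a peak at fewer genes in each OL list than in each OPC list, and their part in the results was not tested.

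Promoter sequences of members are shown first, because the regions sit on them. They are the RefSeq sequences of GRCm38.p6 from 250 bases before to 50 bases after the start, each of 300 bases, read 5′ to 3′ on the gene's strand. Capitals mark matches to the motifs described after them. Abca14 (chr7:120203714-120204013, plus strand) belongs to the region with the largest difference towards OLs among those called, and Ecrg4 (chr1:43730352-43730651, plus), Nppa (chr4:148000472-148000771, plus) and Ttc29 (chr8:78213092-78213391, plus) to called regions with large differences towards OPCs. Opalin (chr19:41077064-41077363, minus), an oligodendrocyte gene, Mcm3 (chr1:20820263-20820562, minus), a replication gene, and Psmd4 (chr3:95042565-95042864, minus), a proteasome gene, were chosen after their values were seen. The last 2 show strong peaks in all 4 lists. The region covers 152 of the 300 bases in Abca14, 124 in Nppa and all 300 in the others.
Abca14: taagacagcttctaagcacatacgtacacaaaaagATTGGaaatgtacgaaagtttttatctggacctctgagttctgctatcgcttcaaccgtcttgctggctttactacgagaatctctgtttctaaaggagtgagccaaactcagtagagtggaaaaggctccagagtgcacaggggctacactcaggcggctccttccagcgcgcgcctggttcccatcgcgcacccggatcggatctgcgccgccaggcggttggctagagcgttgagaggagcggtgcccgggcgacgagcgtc
Ecrg4: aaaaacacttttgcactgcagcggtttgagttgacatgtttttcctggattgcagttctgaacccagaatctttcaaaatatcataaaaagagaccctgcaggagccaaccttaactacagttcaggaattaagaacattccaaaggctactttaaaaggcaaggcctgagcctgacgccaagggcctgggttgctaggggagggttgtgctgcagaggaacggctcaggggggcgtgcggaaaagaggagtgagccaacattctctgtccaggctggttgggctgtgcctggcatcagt
Nppa: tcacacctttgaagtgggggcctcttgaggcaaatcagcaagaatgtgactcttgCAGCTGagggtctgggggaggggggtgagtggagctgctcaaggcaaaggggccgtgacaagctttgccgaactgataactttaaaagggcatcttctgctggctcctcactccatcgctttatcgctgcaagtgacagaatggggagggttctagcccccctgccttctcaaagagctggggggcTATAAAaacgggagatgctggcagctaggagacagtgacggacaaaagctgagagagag
Ttc29: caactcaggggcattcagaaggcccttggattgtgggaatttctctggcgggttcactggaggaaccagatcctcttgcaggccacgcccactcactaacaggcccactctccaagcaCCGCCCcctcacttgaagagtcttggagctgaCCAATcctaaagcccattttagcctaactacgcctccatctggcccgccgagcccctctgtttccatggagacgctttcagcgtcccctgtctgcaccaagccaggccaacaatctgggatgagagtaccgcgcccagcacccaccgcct
Opalin: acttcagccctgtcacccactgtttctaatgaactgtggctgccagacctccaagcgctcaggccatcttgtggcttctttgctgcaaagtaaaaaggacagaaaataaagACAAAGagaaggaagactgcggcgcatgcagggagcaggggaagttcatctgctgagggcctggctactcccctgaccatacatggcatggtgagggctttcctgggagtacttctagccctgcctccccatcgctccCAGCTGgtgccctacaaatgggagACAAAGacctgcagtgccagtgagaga
Mcm3: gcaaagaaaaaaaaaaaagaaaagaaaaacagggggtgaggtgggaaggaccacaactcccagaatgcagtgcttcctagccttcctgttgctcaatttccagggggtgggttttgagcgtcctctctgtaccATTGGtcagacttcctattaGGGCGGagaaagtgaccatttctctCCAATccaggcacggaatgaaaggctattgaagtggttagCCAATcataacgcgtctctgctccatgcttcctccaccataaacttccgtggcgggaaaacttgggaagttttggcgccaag
Psmd4: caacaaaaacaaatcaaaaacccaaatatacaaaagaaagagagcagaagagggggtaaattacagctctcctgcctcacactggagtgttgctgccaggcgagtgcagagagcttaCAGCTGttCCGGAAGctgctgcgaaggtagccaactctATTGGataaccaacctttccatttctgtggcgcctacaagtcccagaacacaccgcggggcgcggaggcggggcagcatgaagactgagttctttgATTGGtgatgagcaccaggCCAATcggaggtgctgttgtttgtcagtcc

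These promoters differ in composition. The CpG observed over expected ratio, which is near 1 where CG dinucleotides are as frequent as the base composition predicts, was 0.98 in Abca14, 0.51 in Psmd4, 0.45 in Mcm3 and Ttc29, 0.28 in Nppa, 0.27 in Ecrg4 and 0.18 in Opalin. The Mcm3 and Psmd4 promoters each hold 3 CCAAT boxes, Psmd4 also an ETS core, Nppa a TATA box, and Opalin 2 SOX cores. The TATA box of Nppa and the CCAAT box of Abca14 lie in the parts of these promoters that the regions do not cover. Ecrg4 holds none of the motifs searched. A match describes the letters only and does not show that a factor binds.

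Promoters inside the regions were mostly rich in CpG. Of 21262 RefSeq promoters of protein-coding genes, 8555 had their start inside a member, in 7120 regions. The median GC share was 62.0% in these promoters, against 51.3% in the 12707 whose start lay outside members and 52.7% in all 32851 promoters of the table. The median CpG ratio was 0.798 inside members, 0.29 outside them and 0.384 in the whole table. Of promoters with a ratio of 0.6 or more, 6855 of 10136 (67.6%) began inside a member, against 1135 of 2754 (41.2%) with a ratio of 0.4 to 0.6 and 565 of 8372 (6.75%) with a lower ratio. The first class made up 80.1% of the promoters inside members. The choice of regions open in all lists and near gene ends selects accessible promoters, so these shares describe the members and were not tested.

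The motif content followed the same division. Each motif was searched on both strands with N for any base, no motif contains another, neighbouring matches may share bases, and each motif was counted on its own. The GC box GGGCGG, the site of Sp1, was in 69.5% of promoters inside members, 30.5% of those outside and 35.7% of all promoters of the table. The ETS core CCGGAAG was in 20.9% inside members, 5.30% outside and 8.86% of all. The NRF1 motif GCGCATGCG was in 4.58%, 0.85% and 1.75% in the same order, the YY1 motif AAGATGGCG in 3.51%, 0.708% and 1.4%, the cyclic AMP response element TGACGTCA in 3.85%, 1.15% and 1.79%, and the element TCTCGCGAG in 1.5%, 0.606% and 0.676%. The E-box CACGTG was in 10.6%, 5.96% and 7.15%. Other motifs were in a smaller share inside members than outside. The TATA box TATAAA was in 5.94% inside members, 17.1% outside and 13.6% of all, the AP-1 site TGANTCA in 3.68%, 9.22% and 7.81%, the SOX core ACAAAG in 12.2%, 19.9% and 18.7%, and the NFI half-site TTGGCA in 10.4%, 14.9% and 14.1%. The CCAAT box CCAAT (39.5%, 37.3%, 37.4%), the E-box CAGCTG (14.2%, 16.5%, 16.3%), the SREBP motif TCACNCCAC (1.03%, 1.3%, 1.24%) and the SRF motif CCATATTAG (0.0584%, 0.197%, 0.103%) had shares inside and outside members that differed by less than 3 percentage points, as did some motifs given before.

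Most members lay at gene starts. The nearest gene end was a start for 8542, the far end of the gene for 950, and a boundary of a gene without a RefSeq promoter entry, where start and end cannot be told apart here, for 2345. Within 1 kb, 10206 members had 1 gene, 1603 had 2 and 28 had 3 or more, and 834 had starts on both strands, the layout of divergent promoters. The nearest genes numbered 10199, which is 46.6% of 21896 protein-coding genes. The median width was 862 bp, with quartiles at 518 and 1120 bp. Members nearest a start had a median width of 912 bp and those nearest a far end 355 bp, against 413 bp for shared regions in gene bodies and 393 bp for shared regions outside genes.

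The summit of the best peak was close to the start in all 4 libraries. Over the 8542 members nearest a start its median position was 11 and 13 bp downstream in OLs and 8 and 6 bp downstream in OPCs. It lay within 100 bp of the start in 52.5% and 51.7% of them in OLs and in 52.7% and 52.6% in OPCs. Between OL and OPC the summit moved by a median of 26 bp in 129O1 and 25 bp in EpiSC5, against 21 bp between the OL libraries and 26 bp between the OPC libraries. The median distance between cell types was thus no larger than that between the OPC libraries, and larger than that between the OL libraries. The summit moved by at most 50 bp in 69.1% of members between cell types in 129O1 and 72.2% in EpiSC5. The share was 75.1% between the OL libraries and 72.6% between the OPC libraries.

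**Figure D1:**
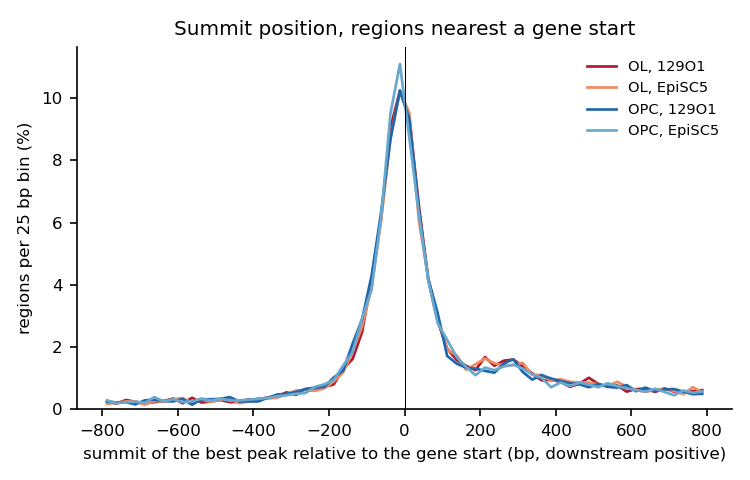
Position of the summit of the best peak relative to the gene start, in bp with downstream positive, over the 8542 regions nearest a start. Each line is the share of regions per 25 bp bin in 1 library, and the 4 lines rise together to a peak at the start, with median positions between 6 and 13 bp.

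Peak height was read as a rank, because the fold of a peak over background is the authors' own value for its list. In each library the 55466 shared regions were ranked by the fold of their best peak, and the fold percentile is the share of these regions at or below a region. The median fold percentile of the members was 55.8 and 54.4 in OLs and 53.0 and 52.0 in OPCs. Members nearest a start had medians of 57.7 and 56.8 in OLs and 54.7 and 53.6 in OPCs. Members nearest a far end were lower, at 40.8 and 38.2 in OLs and 40.8 and 36.8 in OPCs. Shared regions in gene bodies had medians of 45.3 and 46.3 in OLs and 46.7 and 46.8 in OPCs, and those outside genes 53.5 and 54.0 in OLs and 54.9 and 55.6 in OPCs. Of the members, 10.2% and 8.37% in OLs and 8.39% and 8.07% in OPCs had a fold percentile above 90. The regions stood out more by length than by height, since their medians by rank of covered bp were 80.0 and 78.8 in OLs and 81.2 and 79.6 in OPCs.

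**Figure D2:**
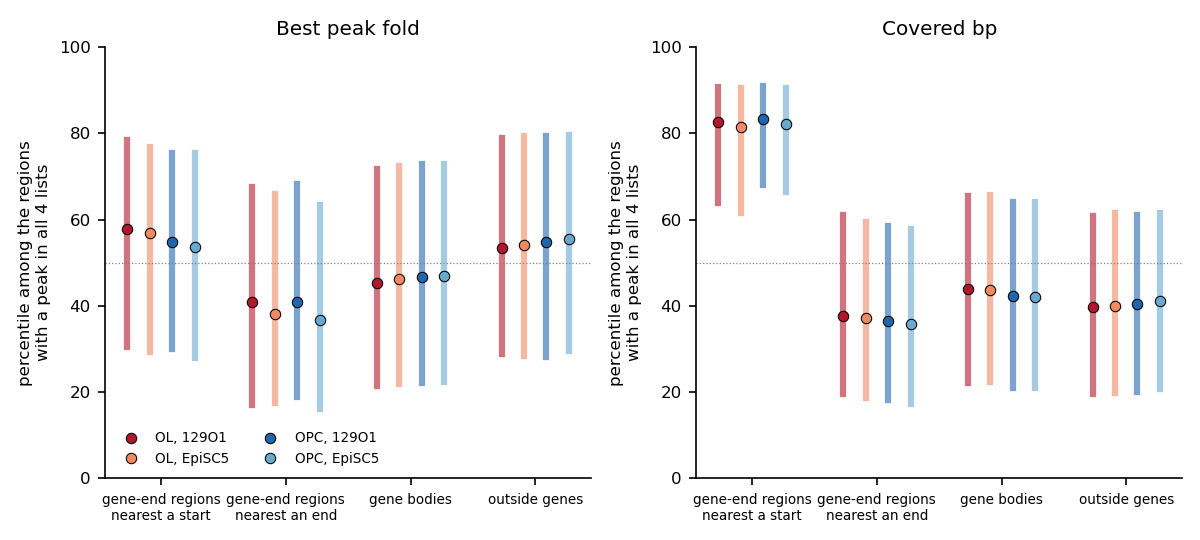
Percentile of best peak fold and of covered bp among the 55466 shared regions, for gene-end regions nearest a start or a far end, shared regions in gene bodies and shared regions outside genes. Points are medians and bars the range between quartiles in each of the 4 libraries, OLs left of OPCs, and the medians of regions nearest a start are above 80 by covered bp in every library.

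Height depended on width within the members. The 2840 members under 500 bp had median fold percentiles of 22.7 and 22.3 in OLs and 23.2 and 19.5 in OPCs. The 4637 members of 500 to 1000 bp had 66.4 and 63.3 in OLs and 66.0 and 65.2 in OPCs. The 4360 members of 1000 bp or more had 60.3 and 59.7 in OLs and 53.7 and 54.9 in OPCs. The middle class was thus the highest in every library, and the OL and OPC medians were apart in the widest class alone. Peaks were also split differently between libraries, as 77.9% and 77.3% of members held a single peak in OLs and 82.9% and 95.8% in OPCs.

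Promoters with an ETS core or a CCAAT box had higher peaks in both cell types. The median fold percentile of members with an ETS core in a promoter was 72.2 and 70.4 in OLs and 66.8 and 67.7 in OPCs, against 61.2 and 59.9 in OLs and 57.2 and 57.3 in OPCs for the 5816 members with a promoter that lacks it. With a CCAAT box the medians were 67.8 and 66.7 in OLs and 64.4 and 64.6 in OPCs, and without it 60.7 and 59.0 in OLs and 56.4 and 56.9 in OPCs. In each library the median with the motif was above the median without it. This was also so for the cyclic AMP response element, YY1, NFI and SOX motifs. With the first of these the medians were 69.8 and 65.2 in OLs and 63.9 and 64.6 in OPCs. Without it they were 63.0 and 62.2 in OLs and 58.9 and 59.7 in OPCs. For the GC box, the TATA box and the SREBP motif the median with the motif was the lower one in each library. Among promoters in members with a mean fold percentile of 75 or more, 29.3% of 2410 held the ETS core and 49.0% the CCAAT box, against 13.1% and 32.8% of 930 promoters in members under 25. A region with several promoters can stand in both groups, and no test was made.

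The comparison of OL with OPC asks which of these shared sites differ in height between the differentiated cell and its progenitor. Few passed the threshold. Ranks were turned into normal scores, on which 1 unit is 1 SD of all shared regions, and OL was compared with OPC by limma over all 55466 shared regions, with Benjamini-Hochberg adjustment and a threshold of 0.05. Of the 11837 members 84 were called (0.71%), beside 3.18% of all shared regions. The calls were 30 higher in OLs, beside 1.51% of all shared regions, and 54 lower, beside 1.67%. In all 84 the OL and OPC values did not overlap, so the separation at called regions described below is not a further finding. With the cell line as replicate block the count was 140, with 48 higher and 92 lower, including 83 of the 84. With any single library left out no member was called (lowest limma adjusted p 0.0639 to 0.238), although 672 to 1246 members then had an unadjusted p below 0.05, and on raw percentiles none was called (lowest limma adjusted p 0.0813, with 1568 at an unadjusted p below 0.05). The exact permutation test of 2 libraries against 2 cannot give a p below 1 in 3, so single regions rest on the spread that limma pools over regions.

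Differences between the cell types had a narrower spread among members than among shared regions in gene bodies or outside genes, and a wider one than among the broader gene-end regions, which is given as a description without a test. The members' OL minus OPC difference in mean fold percentile had an SD of 14.6 points, against 24.7 for regions in gene bodies, 24.6 for regions outside genes and 10.1 for shared gene-end regions of 1500 bp or more. It was within 10 points for 60.8% of members and for 45.1% of all shared regions, and beyond 30 points for 5.4% of members, 1.25% of the gene-end regions of 1500 bp or more and 17.4% of all. Members nearest a start had 39 calls in 8542 (0.457%), those nearest a far end 20 in 950 (2.11%), and those of genes without a promoter entry 25 in 2345 (1.07%). Of the 834 divergent members 1 was called (0.12%), against 986 of 23640 regions in gene bodies (4.17%) and 694 of 18435 outside genes (3.76%). The 1120 shared gene-end regions of 1500 bp or more had no call by limma, with 88 at an unadjusted p below 0.05. By width, 24 members under 500 bp were called higher and 17 lower, 6 of 500 to 1000 bp were called higher and 30 lower, and none of the wider ones was called higher and 7 lower.

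The members as a whole were ranked slightly higher in OLs. The median difference was 2.13 percentile points, 2.08 in 129O1 and 1.95 in EpiSC5, against 0.5 for all shared regions. It was 2.24 for members nearest a start, 3.44 for divergent members, 0.74 for members nearest a far end, and 5.41 for members of 1000 bp or more. The sign depended on the measure, since ranks by the best −log10 q in place of fold gave a median of -1.82. The median distance between the lines was 5.4 points among OLs and 5.86 among OPCs, and that between OL and OPC was 8.43 in 129O1 and 8.05 in EpiSC5. The differences in the lines were correlated across the 11837 members (Pearson's r = 0.60), which share their libraries and are not independent replicates. By CpG class, the median difference was 3.65 points for promoters with a ratio of 0.6 or more, 0.52 for 0.4 to 0.6 and -0.57 for lower ratios.

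**Figure D3:**
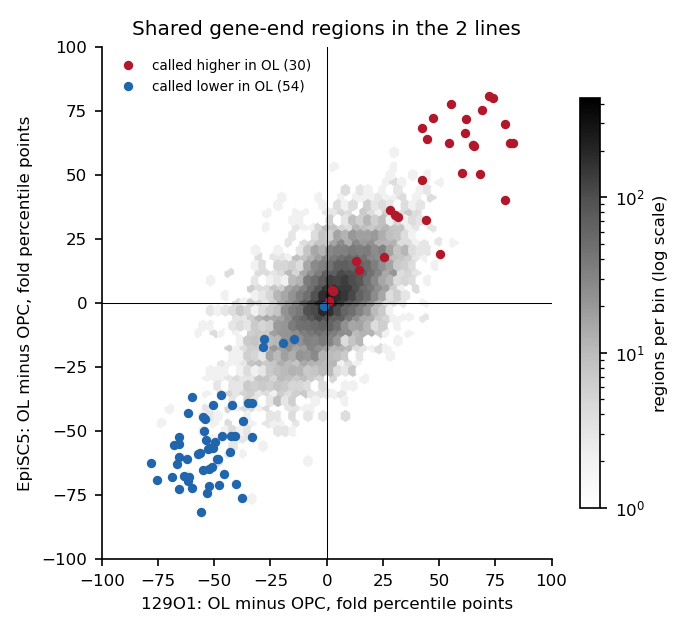
OL minus OPC difference in fold percentile points of the 11837 regions in line 129O1 (horizontal) and line EpiSC5 (vertical), with grey for the number of regions per bin on a log scale. The 30 regions called higher in OLs (red) and the 54 called lower (blue) differ in the same direction in both lines, and most regions lie near the centre.

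Regions called higher in OLs were mostly narrow and belonged to genes of varied function. The largest difference was at the start of Abca14, a gene of the ABC transporter family, where a region of 270 bp (chr7:120203862-120204131) had fold percentiles of 91.2 and 90.1 in OLs, against 17.4 and 10.1 in OPCs. Both OL libraries were far above both OPC libraries. The difference was 2.43 on the normal-score scale (SE 0.27, limma adjusted p = 0.042), and the authors' fold values behind it were 12.81 and 13.09 in OLs and 5.68 and 4.82 in OPCs. A region near Lyve1, which encodes the hyaluronan receptor of lymphatic vessels, had 90.2 and 96.4 in OLs and 18.2 and 15.6 in OPCs. At the far end of Nudt13, a nudix hydrolase gene, the values were 98.0 and 95.0 in OLs and 36.3 and 23.3 in OPCs. The region near the start of the natural killer receptor gene Klra1 had 99.8 and 99.0 in OLs and 18.2 and 36.4 in OPCs. In each the cell types did not overlap. Klra1 belongs to a family of closely related copies, and the treatment of reads with several matches is not stated in any label or file header. The others among the 10 largest were near Ccdc69, Gm45935, Filip1l, Ranbp10, AI661453 and the ubiquitin protease gene Usp31. Their mean percentiles lay between 68.2 and 95.6 in OLs and between 4.78 and 22.8 in OPCs, each with limma adjusted p between 0.042 and 0.0436.

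Of the 54 regions called lower in OLs 28 lay nearest a start and 15 at a gene without a promoter entry, against 11 and 10 of the 30 called higher. Of all 11837 members 8542 lay nearest a start, and these shares were not tested. The region of Ecrg4 (chr1:43729978-43730984), which encodes a secreted neuropeptide precursor, had 24.2 and 12.8 in OLs and 80.3 and 94.4 in OPCs. Nppa, the gene of atrial natriuretic peptide, had 4.90 and 8.70 in OLs and 73.5 and 76.6 in OPCs in a region (chr4:148000211-148000595) that covers the upstream part of its promoter. The region over the start of Ttc29 (chr8:78213072-78213491), a gene of the sperm flagellum, had 31.2 and 25.5 in OLs and 91.3 and 97.9 in OPCs. All OL values were below all OPC values. The differences were -2.14 (SE 0.36), -2.18 (SE 0.25) and -2.27 (SE 0.33) on the normal-score scale, with limma adjusted p of 0.0467, 0.042 and 0.0425. Taf10, a gene for a subunit of the general transcription factor TFIID, had 12.7 and 8.66 in OLs and 74.0 and 76.5 in OPCs at its start. The region of A2m, which encodes the protease inhibitor α2-macroglobulin, had 20.0 and 15.9 in OLs and 86.4 and 78.6 in OPCs. In these also both OL libraries were below both OPC libraries. Also among the 10 largest were regions near Fam189a2, the adaptor complex gene Ap3m1, and the vesicle transport genes Sec22c and Vamp5, with mean percentiles between 5.75 and 21.3 in OLs and between 71.4 and 93.5 in OPCs. The Sec22c call was lost by the best −log10 q (limma adjusted p = 0.112).

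**Figure D4:**
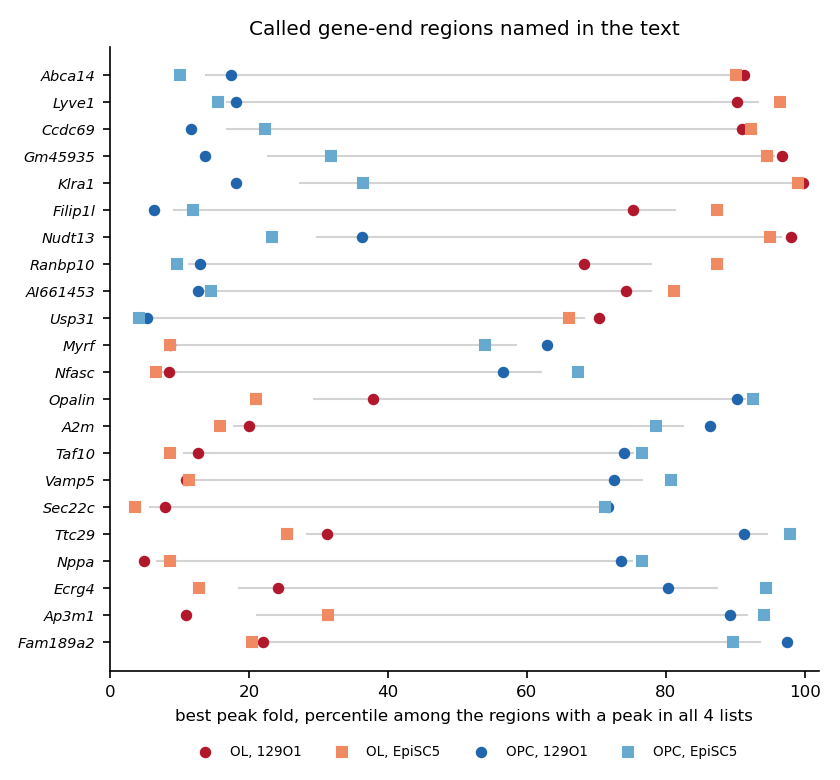
Best peak fold as a percentile among the 55466 shared regions, for the called regions named in the text, with OL libraries in one colour and OPC libraries in another, circles for 129O1 and squares for EpiSC5. In every row drawn the OL points and the OPC points are apart, as in all 84 regions called by fold.

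A few regions of genes that mark the oligodendrocyte were called, in both directions. On the list of myelin and mature oligodendrocyte genes, 15 of 28 genes had 18 members, of which 1 was called higher and 3 lower, beside 0.71% called of all members and 3.18% of all shared regions, and the median difference was -0.15 points, against 0.5 for all shared regions. At an unadjusted limma p below 0.05 were 8 of the 18, 3 of them higher, beside 12.2% of all members and 24.3% of all shared regions. The start of Opalin, an oligodendrocyte membrane protein gene, had 37.8 and 21.0 in OLs and 90.3 and 92.5 in OPCs, a difference of -1.93 (SE 0.30, limma adjusted p = 0.043). Both OL values were below both OPC values. Fa2h and Apod were called too and are named after their values were seen. Fa2h, whose enzyme hydroxylates myelin lipids, had 44.9 and 42.9 in OLs and 91.6 and 94.7 in OPCs (limma adjusted p = 0.0458). Apod, which encodes a lipid carrier of mature oligodendrocytes, had 82.7 and 79.1 in OLs and 14.4 and 28.5 in OPCs (limma adjusted p = 0.0478). Fa2h was thus lower and Apod higher in OLs, without overlap.

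Nfasc and Myrf were lower in OLs as well. The start of Nfasc (chr1:132741021-132742060), which encodes the axon-glia contact protein neurofascin and stands on the immature oligodendrocyte list, had 8.51 and 6.68 in OLs and 56.6 and 67.4 in OPCs, a difference of -1.75 (SE 0.25, limma adjusted p = 0.0422). The region 112 bp inside the higher-coordinate boundary of Myrf (chr19:10240407-10240923), the master regulator of myelin genes, had 8.60 and 8.57 in OLs and 62.9 and 53.9 in OPCs, a difference of -1.58 (SE 0.24, limma adjusted p = 0.0425). The fold ranks were again separate between the cell types. The Myrf region had 371 and 399 bp of peak in OLs and 422 and 517 bp in OPCs. By rank of covered bp within each list it had percentiles of 59.6 and 61.1 in OLs and 60.1 and 62.1 in OPCs (limma adjusted p = 0.938). By the best −log10 q the calls of Opalin, Nfasc and Myrf were lost (limma adjusted p = 0.0688, 0.248 and 0.168), with each difference still below 0. The fold is relative to a background that the lists do not hold, so a lower fold rank is not by itself a smaller peak.

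The rest of these lists did not pass the test. On the immature oligodendrocyte list 1 of 13 members was called, Nfasc, beside 0.71% of all members and 3.18% of all shared regions. An unadjusted limma p below 0.05 was held by 3 of the 13, none higher, beside 12.2% of all members and 24.3% of all shared regions. The median difference of the list was -5.28 points, which turned to 4.66 by the best −log10 q. On the OPC list none of 20 members was called by limma, 1 had an unadjusted p below 0.05, and the median difference was 1.34, which turned to -2.99 by the best −log10 q. Pdgfra, which encodes the CD140a receptor used to sort the OPCs, had a member 692 bp from its far end with 83.0 and 82.4 in OLs and 79.7 and 28.6 in OPCs (limma adjusted p = 0.368). The EpiSC5 OPC library stood apart from the other 3. Olig2, a lineage factor present in both cell types, was near the bottom of the fold ranks, with 1.02 and 2.33 in OLs and 1.49 and 2.01 in OPCs over its start. On the list of lineage transcription factors 1 of 26 members was called, Myrf, and the median difference was 5.15 points. An unadjusted limma p below 0.05 was held by 10 of the 26, 6 of them higher, beside the same 12.2% and 24.3%. The region of Id4, which encodes an inhibitor of differentiation, had 77.1 and 83.0 in OLs and 42.2 and 46.4 in OPCs (limma adjusted p = 0.096). Both OL values were above both OPC values without passing the threshold, and 1 in 3 orderings of 2 libraries against 2 are apart. Olig2 and Id4 were named after their values were seen.

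Ribosomal protein genes and replication genes had higher ranks in OLs as groups, without any single call. Of the 27 members at 24 of 25 ribosomal protein genes, 21 were higher in OLs in both lines and 4 lower in both. Of all members 43.9% were higher in both lines and 27.3% lower, and of all shared regions 37.1% and 33.8%. The median fold percentile of the ribosomal members was 55.2 in OLs and 35.1 in OPCs. Their median difference was 13.44 points, 14.08 in 129O1 and 10.59 in EpiSC5, against 2.13 for all members and 0.5 for all shared regions. No member was called by limma and 5 had an unadjusted p below 0.05, all higher, as 12.2% of all members and 24.3% of all shared regions had in either direction. The rule names Rpl27, the member of the list with the highest fold, which had 78.0 and 83.4 in OLs and 80.3 and 87.4 in OPCs. Its values overlapped between the cell types.

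At 23 of 30 genes of DNA replication and mitosis there were 28 members. Of these, 20 were higher in OLs in both lines and 6 lower in both, beside 43.9% and 27.3% of all members. The median fold percentile was 74.6 in OLs and 56.5 in OPCs, with a median difference of 9.44 points. No member was called by limma and 8 had an unadjusted p below 0.05, all higher, beside the same 12.2% and 24.3%. Mcm3, a subunit of the replicative helicase, was near the top in every library, with 99.7 and 99.1 in OLs and 97.4 and 98.4 in OPCs (limma adjusted p = 0.301). Mcm6, another subunit, had 95.7 and 89.0 in OLs and 65.0 and 64.9 in OPCs (limma adjusted p = 0.102), and Pcna, the sliding clamp gene, 91.9 and 86.2 in OLs and 66.1 and 65.8 in OPCs (limma adjusted p = 0.147). In all 3 the OL values were above the OPC values without a call, and by the best −log10 q the direction turned for Mcm3. Mcm6 and Pcna were named after their values were seen. By covered bp the median of the list was lower in OLs, by -4.28 percentile points. Both group medians depended on the measure, since the best −log10 q gave 5.4 points for the ribosomal and 0.16 for the replication list, beside -1.82 for all members.

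Other lists of broadly used genes lay nearer to the median of all members. Proteasome genes had a median difference of 1.3 points over 26 members, with Psmd4 at 96.7 and 96.0 in OLs and 94.0 and 95.5 in OPCs. Genes of oxidative phosphorylation had -0.97 over 18, with Cox7c at 92.1 and 94.0 in OLs and 95.8 and 97.9 in OPCs. Genes of cholesterol and fatty acid synthesis had 0.07 over 26, with the sterol enzyme gene Nsdhl at 92.9 and 86.6 in OLs and 83.9 and 91.8 in OPCs. Values of the first 2 genes were apart between the cell types, as 1 in 3 orderings of 2 libraries against 2 are, and those of Nsdhl overlapped. Lysosome genes had -3.22 over 30 members, 9 higher and 14 lower in both lines, with the membrane protein gene Lamp2 at 93.7 and 80.1 in OLs and 94.0 and 93.1 in OPCs. Secretory pathway genes had 2.38 over 26, with the vesicle coat gene Sar1b at 95.8 and 94.5 in OLs and 98.6 and 93.2 in OPCs. Chromatin regulators had 2.06 over 14, with Smarcc1 at 74.8 and 58.4 in OLs and 62.8 and 73.7 in OPCs. Cytoskeleton genes had -0.03 over 30, with Stmn3 at 83.3 and 96.7 in OLs and 88.0 and 85.0 in OPCs. Values of the last 4 genes overlapped between the cell types. Immediate early genes, which respond to growth signals, had 5.01 over 31 members, 19 higher and 3 lower in both lines, with Nr4a2 at 69.6 and 71.7 in OLs and 57.6 and 68.8 in OPCs. The lysosome and immediate early counts stand beside 43.9% higher and 27.3% lower in both lines among all members. By the best −log10 q the sign turned for the proteasome (-2.21), cholesterol (-2.52), secretory (-0.83), chromatin (-4.18) and cytoskeleton lists (1.56), and by length-weighted mean fold for chromatin regulators (-0.67). No member of these 8 lists was called by limma. At an unadjusted p below 0.05 there were 1 proteasome, 0 oxidative phosphorylation, 1 cholesterol, 4 lysosome, 1 secretory, 1 chromatin, 5 cytoskeleton and 6 immediate early members, to be read against 12.2% of all members.

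**Figure D5:**
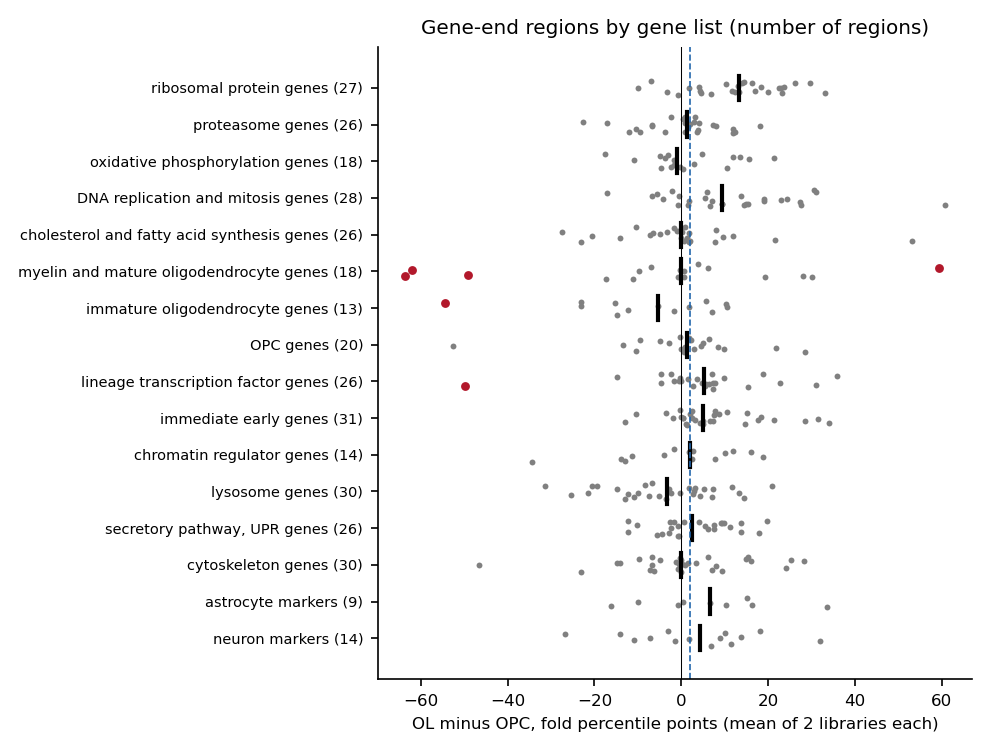
OL minus OPC difference in mean fold percentile points for each gene-end region by gene list, with the number of regions in brackets. Points are regions and short bars list medians, the dashed line is the median of all 11837 regions (2.13), and the ribosomal list has the highest median among lists of 10 or more regions (13.44).

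Markers of other cell types were also among the members, and open promoters do not show that the gene is expressed. Astrocyte markers had 9 members with a median difference of 6.66 points, neuron markers 14 with 4.36 and microglia markers 3 with 5.38, and none was called by fold with limma, with 1, 3 and 2 at an unadjusted p below 0.05. By the best −log10 q the medians were -6.04, -3.51 and 19.46, so the direction turned for the astrocyte and neuron lists. The 3 microglia members ranged from -40.9 to 48.3 points. One of them, at the microglial membrane protein gene Tmem119, was called by covered bp, with 683 and 638 bp in OLs and 253 and 278 bp in OPCs (limma adjusted p = 0.0472), and was named after its values were seen. The start of P2ry12, a purinergic receptor gene of microglia, had 99.3 and 98.4 in OLs and 90.3 and 96.6 in OPCs (limma adjusted p = 0.218). That of S100b, a gene of astrocytes that oligodendrocyte cells also use, had 29.4 and 43.8 in OLs and 45.1 and 48.2 in OPCs (limma adjusted p = 0.593). Snap25, a synaptic gene, had 93.7 and 91.6 in OLs and 69.2 and 88.4 in OPCs (limma adjusted p = 0.33). Values of these 3 were apart between the cell types, as 1 in 3 orderings of 2 libraries against 2 are. None of the 3 was called by fold, and by the best −log10 q the direction turned for S100b and Snap25. Single members stood at Kdr on the vascular list, with 61.2 and 19.5 in OLs and 63.1 and 46.3 in OPCs, and at Fgf5 on the pluripotency list, with 57.0 and 56.6 in OLs and 70.4 and 66.2 in OPCs.

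The highest peaks of the members were near the top in every library. The 5 members with the highest mean fold percentile were at the far ends of the histone gene H2bc1, the Wnt secretion gene Wls, Gm21814 and the thrombopoietin gene Thpo, and near the translation factor gene Eif3j2. Their fold percentiles were 99.2 or more in every library, and their widths were 254 to 374 bp. The authors' fold of the H2bc1 region was 28.47 and 25.3 in OLs and 27.98 and 27.22 in OPCs. None had a promoter in the RefSeq table that the region covers, and 4 of the 5 lay nearest a far end, as 950 of all 11837 members did.

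Covered length was compared in the same way by ranks of the bp under peaks in a region. Of the members 55 were called (0.465%), beside 1.37% of all shared regions. The 15 higher in OLs stand beside 0.705% of all shared regions and the 40 lower beside 0.663%. With fixed windows of 100 bp on either side of summits in place of covered bp, 608 of 613 called members were higher in OLs. These windows ignore peak edges. Their bp changes only with the number and spacing of peaks in a region. A single peak was held by 77.9% and 77.3% of members in OLs and 82.9% and 95.8% in OPCs, and its part in these calls was not tested. For covered bp with the cell line as replicate block no member was called (lowest limma adjusted p 0.0573). An unadjusted limma p below 0.05 was then held by 2026, against 1944 without the block. The difference was within 10 percentile points for 80.1% of members, and its median was 0.19. Only 6 members were called by both measures, 2 higher in both and 4 lower in both, out of 133 called by either.

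The largest gain of covered length was 744 bp from the far end of Cxxc4, which encodes a Wnt inhibitor, where peaks took 874 and 888 bp in OLs and 88 and 160 bp in OPCs (limma adjusted p = 0.0472). Its region was also called by fold, with fold percentiles of 83.6 and 88.9 in OLs and 18.2 and 27.5 in OPCs (limma adjusted p = 0.0425). Near Smco3 peaks took 711 and 955 bp in OLs and 122 and 183 bp in OPCs, and at Tmem251, a gene of lysosomal enzyme sorting, 377 and 492 bp in OLs and 88 and 120 bp in OPCs. All 3 had longer peaks in both OL libraries. Less covered in OLs was the region near the neuronal kinase gene Camk2a, with 120 and 146 bp in OLs and 850 and 1061 bp in OPCs. Its fold rank was alike, at 15.7 and 9.89 in OLs and 11.6 and 11.3 in OPCs. Near Vxn, a neurogenesis gene, peaks took 101 and 100 bp in OLs and 722 and 712 bp in OPCs, and near Msc, which encodes the repressor musculin, 93 and 124 bp in OLs and 688 and 736 bp in OPCs. Peaks were thus shorter in both OL libraries at these 3 genes, by ranks with limma adjusted p of 0.0472, 0.0472 and 0.0476. Over all members, peaks covered a median of 80.6% and 79.2% of the merged width in OLs and 91.5% and 97.0% in OPCs, and the part of this in the calls was not tested.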

How the data were processed

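The submitters' processing notes name mm10, MACS2, Picard, Bowtie2 2.3.2 and Trim Galore 0.3.1. For the peak threshold, the Tn5 shift and duplicates they state nothing. Each library has 1 deposited peak list, and the authors' score, fold (a linear ratio over background), −log10 p and −log10 q of a peak served only for description, ranking and filtering inside its list.

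Peaks of the 4 lists were merged, and genes came from RefSeq on GRCm38.p6, the assembly called mm10. Of 21896 protein-coding genes, 17491 had a promoter entry that gives the strand. For each library the 55466 regions with a peak in all 4 lists were ranked by best peak fold and by covered bp. Normal scores of the ranks were compared between OL and OPC by limma 3.58.1 in R 4.3.3 (two-sided, mean-variance trend, all 4 libraries, Benjamini-Hochberg, threshold 0.05). The fit was also run on simulated data with a common spread for all regions and no line effect. That setting is simpler than the real data, and its outcome is not given here. Summaries used Python 3.11.15.

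Same-line libraries come from the same cell line, per the labels, so the line pairs them. Deviations of same-line libraries from their group means correlated at 0.18 for fold and 0.12 for covered bp over all shared regions. Among the members they correlated at 0.21 for fold and 0.19 for covered bp. The main fit had no term for the line. The labels give each library its group. Regions named are the 10 per direction with the largest fold differences among calls alike in both lines, up to 2 called members per gene list or else the 1 with the highest fold, the 5 with the highest fold, and the 3 per direction by covered bp. Some regions that the rule chose are not reported here. Members, gene lists and tests were chosen with earlier results of these data known. Alternatives changed the ranks, the merging, the width and distance limits, the peak measure, the variance trend and the libraries. No genome sequence was given, so exons, introns and UTRs are not annotated here.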

Additional observations from a re-analysis of the deposited data

Results flagged for a closer look

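Named regions where the lines moved in opposite directions are listed here with the OL minus OPC difference in fold percentile points. The difference between the lines was not tested, as each line has 1 library per cell type. At Nsdhl, a sterol synthesis gene, it was 9.02 in 129O1 and -5.21 in EpiSC5. At Smarcc1, a chromatin remodelling subunit gene, it was 12 in 129O1 and -15.3 in EpiSC5. At Sar1b, a vesicle coat gene, it was -2.78 in 129O1 and 1.26 in EpiSC5. At Stmn3, a microtubule regulator gene, it was -4.71 in 129O1 and 11.7 in EpiSC5. At Gm21814 it was -0.0216 in 129O1 and 0.27 in EpiSC5. None of these regions was called.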

How the results depend on the processing

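The count of 84 members called by fold was 203 with the best 50% of peaks by q (regions merged anew), 285 by rank of the best −log10 q (55 of the 84 among them), 140 with the cell line as replicate block, 0 on raw percentiles and 0 without any single library. The count stayed within 1.5 times under length-weighted mean fold, a required overlap, no variance trend, whole-list ranks and the other width and distance limits. The share higher was 35.7%, and it was 27.5% with whole-list ranks.

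The count of 55 called by covered bp was 613 with 100 bp on either side of summits (608 higher, fitted without the trend because ties left no usable covariate), 147 on log2 scaled bp, 171 on raw percentiles, 84 with gene ends within 2 kb, 88 with widths under 2500 bp, 34 with 500 bp, 27 with widths under 1000 bp, and 0 with the cell line as replicate block, without the trend and with whole-list ranks. Without single libraries it was 0 to 55. The 55 without the EpiSC5 OL library held 17 of the calls, with 2 higher and 53 lower. The share higher was 27.3%, and 14.0% with the best 50% of peaks and 99.2% around summits.

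The members' median difference of 2.13 points was 2.29 with 500 bp, 1.88 with 2 kb, 0.57 under 1000 bp, 2.57 under 2500 bp, 1.62 by mean fold, 2.55 with the best 50% of peaks and -1.82 by −log10 q, and 1.66 to 2.55 without single libraries. Where settings changed a value the cause was not tested.

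Some named regions changed direction (normal scores). By mean fold Stmn3 gave -0.07. By −log10 q Psmd4 gave -0.33, Mcm3 -0.28, Nsdhl -0.20, Nr4a2 -0.26, S100b 0.36, Snap25 -0.12 and Eif3j2 0.10. Without single libraries the direction turned within the range of -0.11 to 0.30 for Nsdhl, -0.27 to 0.19 for Smarcc1, -0.67 to 0.01 for Lamp2, -0.54 to 0.17 for Sar1b, -0.14 to 0.74 for Stmn3, -0.98 to 0.16 for Kdr, -0.08 to 0.12 for Wls, -0.28 to 0.02 for Rpl27 and -0.12 to 0.41 for Gm21814. None of these was called. By bp in the fixed windows around summits the called Cxxc4 and Tmem251 each gave -0.08.

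Of the 30 calls chosen by the naming rule, 24 held with the line as block, and 24 of the 24 by fold held by mean fold and 19 of 24 by −log10 q. Without the EpiSC5 OL library 3 held, and without any other single library 0 did. Depth is unknown, and 2 libraries per group limit every call.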
